A study of Bos taurus with 13 samples.

Results

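MicroRNAs (miRNAs) of extracellular vesicles (EVs) in ovarian follicular fluid were compared between lactating dairy cows in negative and in positive energy status. Of the 13 pools of the series, the 10 from lactating Holstein Friesian cows were chosen by their labels, and the 3 pools of heifers were left out. The 5 pools of negative status were 3 from transient cows (TCs) sampled at weeks 5 and 6 after calving and 2 from always negative cows (ANCs). The 5 pools of positive status were 3 from TCs sampled at weeks 9 and 10, when their energy balance had recovered, and 2 from always positive cows (APCs). The TC pools held fluid of 11 cows at weeks 5 and 6 and of 7 cows at weeks 9 and 10, and the ANC and APC pools that of 2 cows per group, all from follicles above 10 mm in diameter. ANCs and APCs were sampled at weeks 5 and 6. Within the TCs, status and week after calving therefore cannot be told apart. How the cows were divided among the pools, and whether a given TC contributed to both time points, is not given in the sources used here, so the p-values measure the spread between pools.

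A high-yielding cow enters negative energy balance after calving when milk output takes more energy than feed intake supplies, and body fat is then broken down. Follicular fluid fills the antrum of the follicle around the oocyte, and part of its content is filtered from the circulation while part is released by the cells of the follicle wall. EVs are membrane-enclosed particles that cells release, and their miRNAs, short RNAs that repress matching messenger RNAs, can come from follicle cells and from cells of the blood. In such a mixed fluid, fewer EVs of a cell type and less of a miRNA per EV cannot be told apart.

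The reads assigned to listed miRNAs ranged from 145030 to 421435 per pool with a median of 321790.5, and 263 miRNAs were listed for all 10 pools, of which 221 passed the filter on low reads and were tested. Levels are given in CPM (reads of a miRNA scaled to a fixed library total) after the 10 pools had been scaled together by the trimmed mean of M-values (TMM), and 3 reads corresponded to 7.2 to 20.3 CPM. This floor covers counting error only. Between 258 and 263 of the 263 miRNAs had at least 1 read in a pool, and the 10 most abundant held 46.0% to 54.4% of the reads. miR-202, a miRNA characteristic of the gonads, stood between 2939 and 8089 CPM in the 10 pools, and miR-21-5p, abundant in granulosa cells, between 46009.7 and 188547 CPM. Replicate 2 of the TCs at weeks 5 and 6 stood apart from the other pools on the second principal component, which held 23.4% of the variance. The correlation across miRNAs between 2 pools ranged from 0.881 to 0.973 (median 0.939, 20 pairs) within a status and from 0.893 to 0.965 (median 0.939, 25 pairs) between statuses. Reads, detected miRNAs, the share of the 10 most abundant miRNAs and the TMM factor were compared between statuses together with the summed levels of 7 marker lists. Detected miRNAs were counted only among the 263 listed for all 10 pools, so this measure had little room to differ. None of the 11 measures passed an adjusted p-value of 0.05 in the exact two-sided permutation test (lowest adjusted p = 0.524), and with 5 against 5 pools the test cannot give a p-value below 0.00794.

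Across all 10 pools, no miRNA was called different between negative and positive energy status. A miRNA was called when, in limma on log2(CPM + 5), its absolute log2 difference was 1 or more, its p-value fell under 0.05 and its p-value adjusted by Benjamini-Hochberg did not exceed 0.25, and 0 of 221 miRNAs (0%) met it, with a lowest adjusted p-value of 0.626. At an unadjusted p-value under 0.05 there were 3 miRNAs (1.36% of those tested), namely miR-451 and miR-486 with lower and miR-424-5p with higher levels in negative status. The quasi-likelihood test of edgeR on the recovered reads also called 0 miRNAs, with 5 at an unadjusted p-value under 0.05, whereas DESeq2 called 2 of 221 (0.905%), with 13 at an unadjusted p-value under 0.05. No miRNA had 5 negative pools that all lay above or all below the 5 positive pools.

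miR-451, which accumulates during the maturation of red blood cells and is cut by Argonaute 2 instead of Dicer, had the lowest p-value. Its level was 34.03, 53.7 and 143 CPM in the TCs at weeks 5 and 6 and 0 and 33.8 CPM in the ANCs. It was 125, 617 and 273.3 CPM in the TCs at weeks 9 and 10 and 823 and 141 CPM in the APCs. The negative pools thus had the lowest values, and the statuses overlapped through replicate 3 of the TCs at weeks 5 and 6, which exceeded 2 of the positive pools. The negative levels rested on 11, 19, 42, 0 and 5 reads. The log2 difference of negative minus positive was -3.07 ± 0.82 (SE, n = 5 and 5 pools, 95% interval -4.86 to -1.28, limma p = 0.00283, adjusted p = 0.626), and the exact permutation p-value was 0.0238. Restricted to the pools of weeks 5 and 6, with 5 negative pools against the 2 of the APCs, the difference was -3.16 ± 1.14 (SE, limma unadjusted p = 0.0218).

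miR-486, encoded within an ankyrin gene and abundant in red blood cells and muscle, followed the same order. Its level was 643, 882 and 5409 CPM in the TCs at weeks 5 and 6, 120.4 and 1122 CPM in the ANCs, 2278, 9530.0 and 3631 CPM in the TCs at weeks 9 and 10 and 8741 and 1965 CPM in the APCs. As for miR-451, replicate 3 of the TCs at weeks 5 and 6 was the negative pool that lay among the positive ones. The log2 difference was -2.32 ± 0.83 (SE, 95% interval -4.12 to -0.51, limma p = 0.016, adjusted p = 0.997), with an exact permutation p-value of 0.0476. Over the 10 pools the log2 levels of miR-451 and miR-486 were correlated with a Pearson r of 0.969 and a Spearman rho of 0.927 (permutation p = 6e-05 and 0.00039, adjusted over 4 relations 0.00024 for r), and r was 0.923 without the 2 pools farthest from the median of miR-451. Without replicate 3 of the TCs at weeks 5 and 6 both miRNAs were called (2 of 222, 0.901%), with an adjusted p-value of 0.137 in limma, and without any other single pool no miRNA was called. DESeq2 called miR-451 at an adjusted p-value of 0.0144, and over all alternatives that of miR-451 ranged from 0.0144 to 0.999 and that of miR-486 from 0.137 to 0.999.

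**Figure D1:**
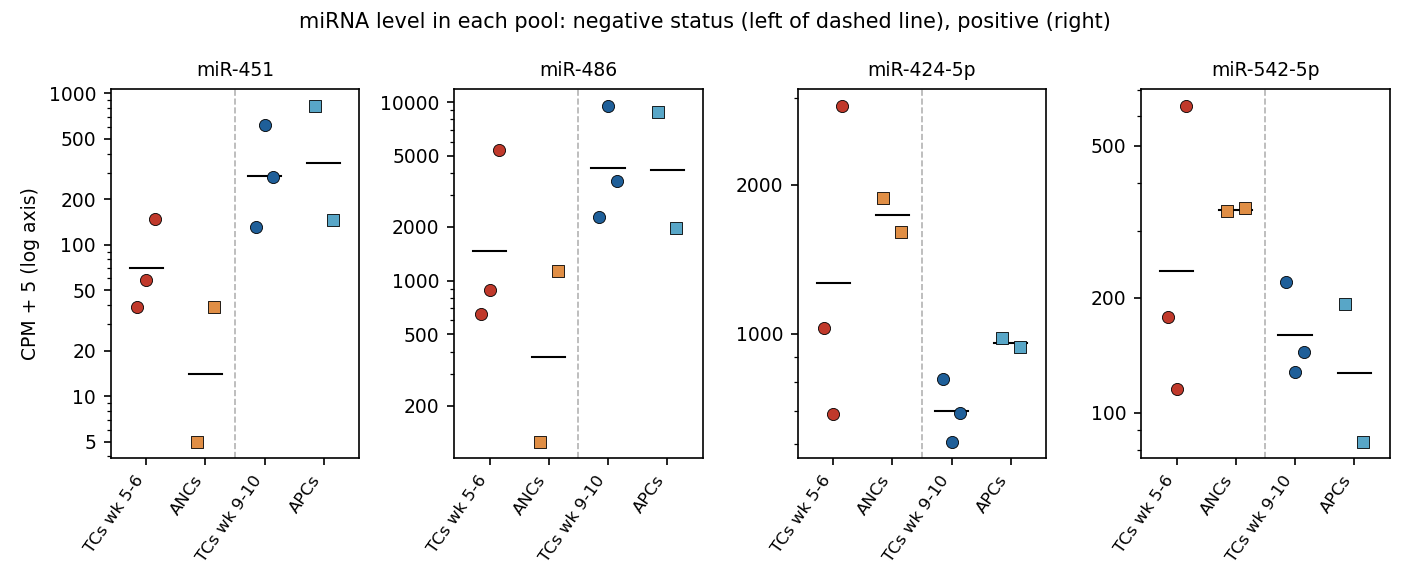
Level of miR-451, miR-486, miR-424-5p and miR-542-5p as CPM + 5 on a log axis, with 1 point per pool of the 4 groups (circles for TCs, squares for ANCs and APCs) and a line at each group's mean on the log scale. For miR-451 and miR-486 replicate 3 of the TCs at weeks 5 and 6, at 143 and 5409 CPM, is the negative pool that reaches into the range of the positive pools.

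Markers of blood cells were read beside these values. The study's methods state that samples with blood were discarded. Of the 3 miRNAs on the erythroid list, miR-144 was not analysed here, and miR-451 and miR-486 are the values above. Their summed level ranged from 120.45 to 5553 CPM in the negative and from 2106 to 10147 CPM in the positive pools, and miR-451 had no read in replicate 1 of the ANCs. The log2 of the sum differed by -2.39 on average (exact permutation p = 0.0476, adjusted over the 11 measures 0.524). The 7 miRNAs of the leukocyte list summed to 1040 to 3227 CPM in the negative and 1713 to 4780 CPM in the positive pools (permutation p = 0.286, adjusted p = 0.873). All 6 tested leukocyte miRNAs had a mean below that of positive status, with a median log2 difference of -0.45 against -0.05 over all 221 miRNAs, and none of them had an unadjusted p-value under 0.05. Under the median-of-ratios and total count scalings 5 of the 6 had the lower mean in negative status. The median of the list was -1.33 between ANCs and APCs and 0.13 within the TCs, the latter turning to -0.02 in the deposited values and -0.11 under total counts. miR-223, a miRNA of granulocytes, had a log2 difference of -0.65 ± 0.46 and miR-150, of lymphocytes, one of -0.71 ± 0.53 (SE, limma adjusted p = 0.997 for both). Over the 10 pools the 4 miRNAs whose log2 level was most like that of miR-451 were miR-486 (r = 0.969), miR-150 (r = 0.738), miR-6120-3p (r = 0.734) and miR-223 (r = 0.701). Their Spearman rho was 0.927, 0.661, 0.624 and 0.673. miR-6120-3p is on neither blood list, nor is the next, miR-199c (r = 0.695). The part of blood-derived EVs in the levels of miR-451 and miR-486 was not tested.

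miR-424-5p, a regulator of the cell cycle encoded in an X-linked cluster, was the miRNA with the lowest p-value among those with higher levels in negative status. It stood at 1024, 684 and 2882 CPM in the TCs at weeks 5 and 6 and at 1879.7 and 1602 CPM in the ANCs. In positive status it was 808, 601 and 686 CPM in the TCs and 977 and 935 CPM in the APCs. Of the negative pools, 4 lay above all 5 positive pools, and replicate 2 of the TCs at weeks 5 and 6 lay among them. The log2 difference was 0.86 ± 0.36 (SE, 95% interval 0.07 to 1.65, limma p = 0.0349, adjusted p = 0.997, exact permutation p = 0.0635). It was 0.86 within the TCs and 0.86 between ANCs and APCs. Neither of these passed an adjusted p-value of 0.25 (0.619 and 0.577), and the tested difference between them was -0.01 ± 0.74 (SE).

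The other miRNAs of the miR-424 to miR-542 cluster were read from a list of 7. All 7 were tested, 6 had a higher mean in negative status (46.2% of all tested miRNAs did), 1 had a p-value under 0.05, and the median log2 difference was 0.43. miR-542-5p stood at 173, 110.2 and 632 CPM in the TCs at weeks 5 and 6 and 332 and 338 CPM in the ANCs, against 215, 123 and 139 CPM in the TCs at weeks 9 and 10 and 187 and 79.0 CPM in the APCs. Both ANC pools lay above all positive pools, while 2 of the 3 TC pools of negative status lay within their range, and the log2 difference was 0.91 ± 0.46 (SE, exact permutation p = 0.111, limma adjusted p = 0.997). miR-450b had a log2 difference of 0.43 ± 0.3 and miR-503-3p of 0.43 ± 0.34 (SE), both with a limma adjusted p-value of 0.997. The list had the same sign of its median in both cow classes, 0.49 between ANCs and APCs and 0.56 within the TCs, under each of the 3 other scalings as well.

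**Figure D2:**
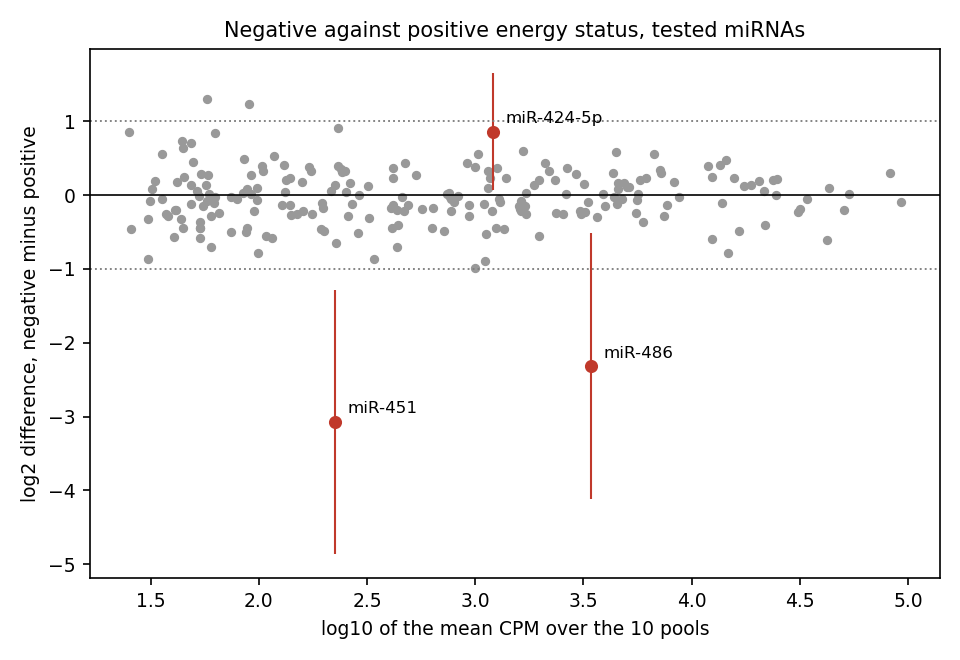
Log2 difference of negative minus positive status (vertical axis) for the 221 tested miRNAs against the log10 of their mean CPM over the 10 pools (horizontal axis). Red points with 95% intervals are the 3 miRNAs with an unadjusted p-value under 0.05, grey points the others, and dotted lines mark a log2 difference of 1 in either direction.

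The remaining miRNAs named by their p-value had smaller or less certain differences, and none passed the adjusted threshold in limma (adjusted p = 0.997 for each). Among those with higher means in negative status, miR-9-5p, best known from neural tissue, had a log2 difference of 1.3 ± 0.61 (SE, exact permutation p = 0.0635). It rested on replicate 2 of the TCs at weeks 5 and 6 with 277 CPM and on replicate 2 of the ANCs with 108 CPM, the other 8 pools lying between 14.7 and 34.03 CPM. Its difference was 0.77 without replicate 2 of the TCs at weeks 5 and 6. Beside miR-451 it was the miRNA that DESeq2 called, at a DESeq2 adjusted p = 0.207, and its adjusted p-value ranged from 0.207 to 0.999 over the alternatives.

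miR-196a and miR-196b, both encoded in the HOX gene clusters, had log2 differences of 1.23 ± 0.58 and 0.84 ± 0.48 (SE, exact permutation p = 0.0952 and 0.135). miR-196a was 309, 79.1 and 82.0 CPM in the TCs at weeks 5 and 6 and 58.4 and 108 CPM in the ANCs. It was 104, 73.0 and 55.2 CPM in the TCs at weeks 9 and 10 and 25.7 and 9.87 CPM in the APCs, so that both ANC pools exceeded both APC pools while the TC times overlapped. Of the other HOX members, miR-10b had a log2 difference of -0.28 ± 0.25 (SE). The list of 4 had 2 members with a higher and 2 with a lower mean.

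miR-574 (0.6 ± 0.33), the mirtron miR-877 (0.7 ± 0.42), miR-876 (0.85 ± 0.53), miR-29a (0.47 ± 0.32) and the muscle miRNA miR-499 (0.56 ± 0.38) completed the 10 miRNAs of lowest p-value with higher means in negative status (log2 difference ± SE). miR-574, at 844.9 to 2698 CPM over the pools, was the miRNA whose log2 level over the 10 pools was most like that of miR-424-5p (r = 0.893). miR-29a represses collagens and dampens insulin signalling, and was among the abundant miRNAs at 7630.1 to 25547 CPM. The mean difference of miR-499 was -0.03 when the TCs at weeks 9 and 10 were left out.

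Among miRNAs with lower means in negative status, miR-101, a repressor of the histone methyltransferase EZH2, had the narrowest spread. It was 937, 1207 and 925 CPM in the TCs at weeks 5 and 6 and 1588 and 1095 CPM in the ANCs, against 1398, 1629.8 and 1506 CPM in the TCs at weeks 9 and 10 and 1811 and 1445 CPM in the APCs. Replicate 1 of the ANCs was the only negative pool above any of the positive pools, and the log2 difference was -0.46 ± 0.22 (SE, exact permutation p = 0.0317). miR-708, from the granulosa and gonad list, lay at 3.41 to 34.03 CPM in negative and 26.5 to 51.4 CPM in positive pools (log2 difference -0.87 ± 0.43 SE, exact permutation p = 0.0476). Its negative levels rested on 11, 7, 1, 7 and 4 reads. The difference was -0.49 without replicate 3 of the TCs at weeks 5 and 6. miR-532 lay at 515.7 to 697 CPM and 533 to 1328 CPM (-0.49 ± 0.27 SE, exact permutation p = 0.0397). With miR-451 and miR-486 these were the 5 miRNAs (2.26% of 221) with an unadjusted exact permutation p-value of at most 0.05, and all 5 had the lower mean in negative status.

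miR-16b, a brake on the cell cycle and among the most abundant miRNAs, was 28894, 39155 and 30454 CPM in the TCs at weeks 5 and 6, 33324 and 29084 CPM in the ANCs, 83545, 40510.1 and 61865 CPM in the TCs at weeks 9 and 10 and 50526 and 26111 CPM in the APCs. The TC times did not overlap for miR-16b, while the ANCs lay between both APC pools (pooled log2 difference -0.61 ± 0.32 SE, exact permutation p = 0.0794). miR-126-3p, a miRNA of endothelial cells, had a log2 difference of -0.53 ± 0.28 (SE, exact permutation p = 0.0714), and miR-335, from an imprinted locus, of -0.89 ± 0.48 (SE, exact permutation p = 0.151). miR-2284t-5p, of a family restricted to ruminants, had -0.79 ± 0.36 (SE, exact permutation p = 0.0635), and miR-19a, of the growth-promoting miR-17 to miR-92 cluster, -0.58 ± 0.32 (SE, exact permutation p = 0.0714).

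The spread between pools limited what could be seen. The median SD within a status was 0.61 on the log2 scale and the median SE of the difference 0.37, which gave a median half-width of the 95% interval of 0.82. For 88 of the 221 miRNAs the whole interval lay within a 2-fold change in either direction, and for the others it reached beyond a 2-fold change. An absolute mean log2 difference of at least 1 was found for 4 miRNAs (1.81%), 2 in each direction. In all, 102 miRNAs had a higher and 119 a lower mean in negative status, which turned to 116 and 105 when pools were scaled to their total counts.

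miRNA lists were described by their counts and medians. In the insulin and lipid list, 12 of 15 miRNAs were tested, 11 had a higher mean in negative status than in positive (46.2% of all tested), none had a p-value under 0.05, and the median log2 difference was 0.24. The sign of the list differed between the cow classes, with 3 higher and 9 lower (median -0.43) between ANCs and APCs and 11 higher and 1 lower (median 0.69) within the TCs. The median between ANCs and APCs turned to 0.1 under total counts, against 0.36 over all miRNAs. The 4 members of lowest pooled p-value had log2 differences of 0.47 ± 0.32 for miR-29a, 0.44 ± 0.35 for miR-29c, 0.3 ± 0.26 for miR-26b and 0.38 ± 0.37 for miR-29b (SE). All 6 tested members of the miR-30 family had a higher mean in negative status (median 0.22, with 0.25 between ANCs and APCs and 0.21 within the TCs, the last turning to -0.03 under total counts), although 1 turned lower in the deposited values with no common scaling, among them miR-30c with 0.4 ± 0.28 and miR-30f with 0.73 ± 0.55 (SE). The liver list (4 tested, 3 with a higher mean, median 0.35, with 0.42 between ANCs and APCs and 0.45 within the TCs) was led by miR-194 with 0.55 ± 0.37 (SE). No member of these 3 lists had an unadjusted p-value under 0.05.

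Lower means prevailed in the miR-17 to miR-92 family and its paralogs, in which 7 of 9 tested miRNAs were lower in negative status (53.8% of all tested) with a median of -0.23. The median was 0.07 between ANCs and APCs and -0.53 within the TCs. The growth-promoting miR-20a had a log2 difference of -0.55 ± 0.37 and miR-93 of -0.48 ± 0.39 (SE). Of the imprinted DLK1-DIO3 locus, 6 of 7 tested miRNAs had the lower mean (median -0.29, with -0.45 between ANCs and APCs, which turned to 0.07 under total counts, and -0.22 within the TCs), with -0.5 ± 0.42 for miR-494 and -0.44 ± 0.37 for miR-154c (SE). The epithelial list had 7 of 9 with the lower mean (median -0.22, but -1.06 between ANCs and APCs and 0.42 within the TCs), with -0.46 ± 0.4 for miR-183, -0.31 ± 0.45 for miR-182 and -0.24 ± 0.54 for miR-200b (SE). Pooled medians near 0 were found for let-7 (0.05, 9 tested), for muscle and smooth muscle (0.04, 6 tested), for the miR-99, miR-100 and miR-125 families (-0.05, 5 tested), for the ruminant lineage (-0.03, 9 tested), for the X-linked miR-188 to miR-660 cluster (-0.11, 3 tested) and for the granulosa and gonad list (-0.1, 5 tested). For let-7 the class medians were 0.59 between ANCs and APCs and -0.27 within the TCs. Members named from these lists were let-7d with 0.2 ± 0.22, miR-98 with 0.32 ± 0.31, miR-143 of smooth muscle with -0.19 ± 0.27 and miR-202 with 0.17 ± 0.3 (log2 difference ± SE, n = 5 and 5 pools). None of the members of these lists had an unadjusted p-value under 0.05.

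**Figure D3:**
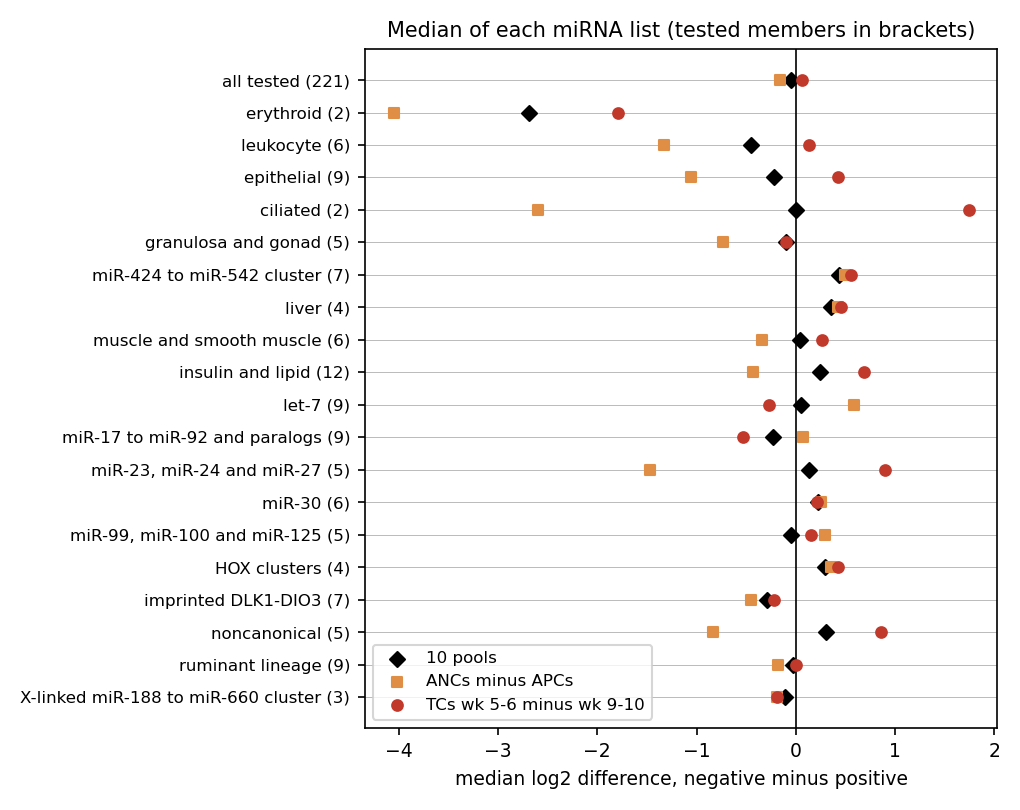
Median log2 difference of negative minus positive status for all tested miRNAs and 19 lists, over the 10 pools (diamonds), between ANCs and APCs (squares) and between the TC times (circles). For the miR-23, miR-24 and miR-27 families the square is at -1.47 and the circle at 0.9, whereas the 3 marks of the miR-424 to miR-542 cluster are at 0.43, 0.49 and 0.56.

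Genes within 10000 bases of each other are often transcribed together. By the RefSeq gene table of assembly ARS-UCD2.0, used for names and neighbourhood alone, all 221 tested miRNAs matched a miRNA gene and 185 matched a single locus, which formed 9 clusters of 3 or more. In 5 clusters every member had a lower and in 1 every member a higher mean in negative status (53.8% and 46.2% of all tested miRNAs did). The medians of the 5 clusters lay between -0.32 and 0.65 for ANCs against APCs and between -0.85 and -0.4 within the TCs. The cluster of miR-19a, miR-20a and miR-17-5p had a median of -0.55 (-0.02 between ANCs and APCs and -0.85 within the TCs), and a median correlation between its members of 0.68 across the 10 pools. The cluster of miR-200b, miR-200a and miR-429, which maintain epithelium, had a median of -0.01 and a correlation of 0.96. Its members moved together from pool to pool, and their mean log2 differences between statuses lay between -0.24 and 0.02.

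The comparison was then made within each cow class. Between ANCs and APCs, 0 of 221 miRNAs (0%) were called in limma, with 19 (8.6%) at an unadjusted p-value under 0.05, and between the TC times 0 (0%), with 14 (6.33%) at an unadjusted p-value under 0.05. The quasi-likelihood test of edgeR also called 0 in both, where an unadjusted p-value under 0.05 was reached by 16 and 22 miRNAs, and DESeq2 called 1 (0.452%) in each, with 19 and 21 at such a p-value. For miR-451 the log2 difference was -4.64 ± 1.16 between ANCs and APCs (SE, adjusted p = 0.511) and -2.02 ± 0.95 within the TCs (SE, adjusted p = 0.619). For miR-486 these were -3.46 ± 1.26 (adjusted p = 0.511) and -1.56 ± 1.03 (adjusted p = 0.631). Both miRNAs thus had the lower mean in negative status in each class, and the difference between classes was -2.63 ± 1.5 for miR-451 and -1.91 ± 1.63 for miR-486 (SE, limma adjusted p = 0.411 and 0.543). Without replicate 2 of the ANCs, miR-451 was called between ANCs and APCs (1 of 224, 0.446%), and without replicate 2 of the TCs at weeks 5 and 6 there were 9 calls (4.07%) between the TC times.

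For most miRNAs the mean differences of the classes had opposite signs, in 139 of 221 (62.9%). In 96 miRNAs (43.4%) the 2 ANC pools lay wholly above or below the 2 APC pools, and in 30 (13.6%) the 3 TC pools of weeks 5 and 6 lay wholly above or below those of weeks 9 and 10. Of the 13 miRNAs (5.88%) separated in both classes, all 13 were separated in opposite directions, and 0 (0%) in the same direction. With so few pools, separation also arises often without a difference between groups. These counts hold for levels scaled with TMM, and separation was not counted under the other scalings. The 13 are not independent results, since levels of several followed a shared pattern over the 10 pools. Among them, miR-1839 had r = 0.942 and miR-423-3p r = -0.834 with miR-320a.

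**Figure D4:**
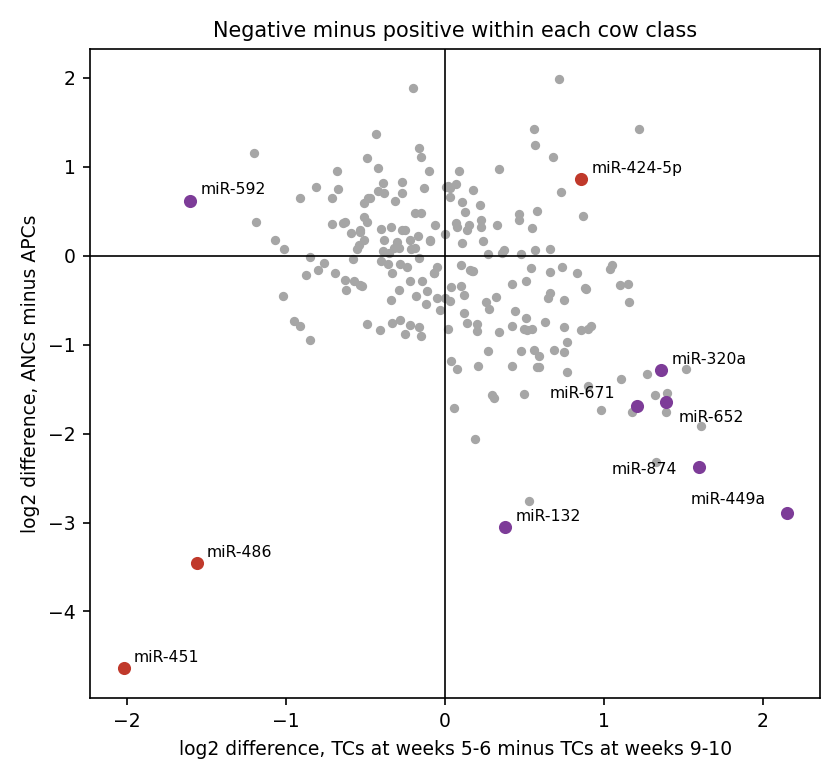
Log2 difference of negative minus positive status between the TC times (horizontal axis) and between ANCs and APCs (vertical axis) for the 221 tested miRNAs, with the 3 of lowest pooled p-value in red and others named in the text in purple. miR-451 and miR-486 lie in the quadrant where both differences are negative, whereas miR-874, miR-671, miR-652 and miR-320a have a positive difference in TCs and a negative one between ANCs and APCs.

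The difference between classes was tested directly as the ANC minus APC difference less that of the TC times. limma called 0 of 221 miRNAs (0%), with 33 (14.9%) at an unadjusted p-value under 0.05, of which 9 (4.07%) were higher and 24 (10.9%) lower, and a lowest adjusted p-value of 0.276 that missed the threshold of 0.25. The quasi-likelihood test called 0, with 37 at an unadjusted p-value under 0.05, and DESeq2 called 26 (11.8%), with 39 at such a p-value. The limma count depended on single pools, being 34 (15.4%) without replicate 2 of the TCs at weeks 5 and 6, 29 (12.9%) without replicate 2 of the TCs at weeks 9 and 10, 39 (17.4%) without replicate 2 of the ANCs, 47 (21.5%) without replicate 1 of the APCs and 0 without any of the other 6. Over the 23 settings, 91 miRNAs were called at least once, and 8 were called in each of the 9 settings that gave any call, 6 of them with a negative and 2 with a positive value.

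The 5 miRNAs with the lowest p-value for the difference between classes were miR-671, miR-874, miR-592, miR-652 and miR-320a. miR-874, encoded in an intron of a kelch-like gene, was 77.3, 22.6 and 205 CPM in the TCs at weeks 5 and 6, 25.5 and 60.8 CPM in the ANCs, 12.1, 29.9 and 23.6 CPM in the TCs at weeks 9 and 10 and 184 and 283 CPM in the APCs. The APCs were thus above the ANCs, and 2 of the 3 TC pools of weeks 5 and 6 were above those of weeks 9 and 10. Its log2 difference was -2.38 ± 0.86 between ANCs and APCs (SE, limma adjusted p = 0.511) and 1.6 ± 0.7 within the TCs (limma adjusted p = 0.619). The difference of these was -3.98 (95% interval -6.44 to -1.52, limma adjusted p = 0.276), while the pooled difference was 0.01 ± 0.82 (SE, limma adjusted p = 0.997).

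miR-671 was 235, 175 and 393 CPM in the TCs at weeks 5 and 6 and 69.3 and 189 CPM in the ANCs. It was 164, 99.6 and 73.6 CPM in the TCs at weeks 9 and 10 and 378 and 385 CPM in the APCs. At this scaling the groups of each class did not overlap and lay in opposite order. The difference between classes was -2.9 ± 0.77 (SE, limma adjusted p = 0.276). miR-652 was separated in the same way, at 129.9, 73.5 and 376 and 72.3, 53.1 and 44.7 CPM at the TC times and 80.3 and 115 and 382 and 250.1 CPM in ANCs and APCs (difference -3.03 ± 0.88 SE, limma adjusted p = 0.276). For both miRNAs the nearest TC pools were replicate 2 of weeks 5 and 6 and replicate 1 of weeks 9 and 10. Their TMM factors were 0.995 and 1.159, and without these factors the order of the nearest pools reverses, so that the TC times overlap.

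miR-320a, which is made from a hairpin without cleavage by Drosha and ranked first in 3 of the 10 pools, was 82090.0, 41085 and 167932 CPM in the TCs at weeks 5 and 6 and 23213, 51677 and 27745 CPM at weeks 9 and 10. It was 40982 and 93044 CPM in the ANCs and 145094 and 156496 CPM in the APCs (difference between classes -2.65 ± 0.87 SE, limma adjusted p = 0.276). miR-592 had the reverse order, with 21.7, 33.9 and 41.0 CPM in the TCs at weeks 5 and 6, 84.4, 136 and 99.8 CPM at weeks 9 and 10, 65.7 and 47.3 CPM in the ANCs and 40.4 and 29.6 CPM in the APCs. Its difference within the TCs was -1.6 ± 0.4 (SE, limma adjusted p = 0.579) and that between classes 2.22 ± 0.64 (adjusted p = 0.276). Between ANCs and APCs it was 0.62 ± 0.49 (SE, limma adjusted p = 0.647), resting on 18 and 7 reads against 11 and 9.

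Among the lists, the 5 tested members of the miR-23, miR-24 and miR-27 families had a median of -1.47 between ANCs and APCs and 0.9 within the TCs. Of these, 3 of 5 had a p-value under 0.05 for the difference between classes (14.9% of all tested). miR-23b-3p had a difference between classes of -3.15 ± 1.08 and miR-27a-3p of -2.37 ± 0.78 (SE, limma adjusted p = 0.276 for both), whereas the values of miR-24-3p and miR-27b were -0.86 ± 0.69 and 0.89 ± 0.49 (SE, adjusted p = 0.531 and 0.401). miR-27b had the reverse order, with 0.76 between ANCs and APCs and -0.13 within the TCs. In the leukocyte list, miR-150 had -2.06 ± 0.65 between ANCs and APCs and 0.19 ± 0.53 within the TCs (SE, difference -2.25 ± 0.84, adjusted p = 0.276). miR-31, from the granulosa and gonad list, had 0.95 ± 0.32 and -0.1 ± 0.26 (SE, difference 1.05 ± 0.41, adjusted p = 0.276).

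**Figure D5:**
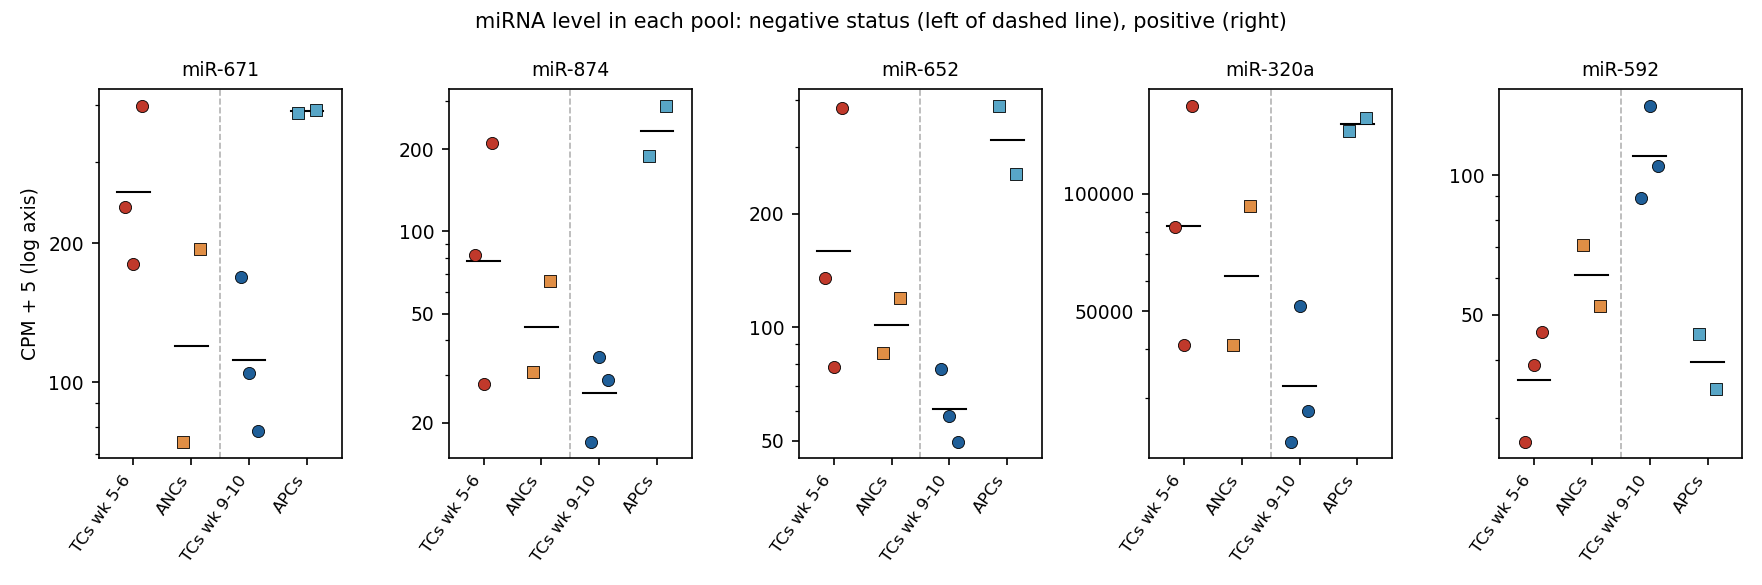
Level of the 5 miRNAs with the lowest p-value for the difference between cow classes, as CPM + 5 on a log axis, with 1 point per pool (circles for TCs, squares for ANCs and APCs) and a line at each group's mean on the log scale. For miR-671 the APC pools, at 378 and 385 CPM, lie above the ANC pools, and the TC pools of weeks 5 and 6 lie above those of weeks 9 and 10.

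The composition of the libraries moved with these values. The TMM factor was 0.807 to 1.115 in the TCs at weeks 5 and 6, 1.06 to 1.204 in the TCs at weeks 9 and 10, 1.02 to 1.234 in the ANCs and 0.721 to 0.832 in the APCs. Over the 10 pools it was correlated with the log2 level of miR-320a with r = -0.857 and rho = -0.855 (permutation p = 0.0022 and 0.00277, adjusted over 4 relations 0.00295 for r), and r was -0.752 without the 2 pools farthest from the median factor. The factor was correlated with the score of the first principal component with r = -0.855 (permutation p = 0.00221, adjusted p = 0.00295) and with the log2 level of miR-451 with r = -0.425 (permutation p = 0.221, adjusted p = 0.221). The factor is computed from the same reads, and levels in CPM are divided by it. Its relations with these levels are therefore in part built in, which the permutation p-values do not allow for. The part of the factor in the differences between classes was not tested. When pools were scaled to total counts instead, the median over all miRNAs moved from -0.08 to 0.65 for the difference between classes, and 52 miRNAs (23.5%) were called, 43 higher and 9 lower. The order of miR-320a was kept, with a difference between classes of -2.65 in the main analysis and -1.87 under total counts, both below these medians.

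Among the miRNAs that the study names for its pairwise comparisons, miR-132, miR-34c and miR-449a depended on single pools in the pooled comparison. miR-132, which is induced by the ovulatory hormone surge in granulosa cells, was 247, 203 and 1185 CPM in the TCs at weeks 5 and 6, 87.6 and 74.3 CPM in the ANCs, 2625, 143 and 68.3 CPM in the TCs at weeks 9 and 10 and 5215 and 92.1 CPM in the APCs. A single pool in each of 3 groups was high, and the log2 difference of -0.99 ± 1.22 (SE, limma adjusted p = 0.997) was -0.09 without replicate 1 of the APCs. miR-34c and miR-449a, which share a seed and mark ciliated epithelium, were highest in replicate 2 of the TCs at weeks 5 and 6, at 7776 and 1596 CPM. In the other 9 pools miR-34c lay between 20.3 and 839 CPM and miR-449a between 0 and 319 CPM. Their log2 differences were -0.13 ± 1.34 and 0.14 ± 1.3 (SE, adjusted p = 0.997 for both), and without that pool they were -1.55 and -1.02. The study reports miR-451, miR-486, miR-132, miR-874 and miR-2285 as downregulated in ANCs compared to APCs. The log2 differences here had the same sign, at -4.64 for miR-451, -3.46 for miR-486, -3.05 for miR-132 and -2.38 for miR-874. None of these was called in limma. That of miR-132 was -0.18 without replicate 1 of the APCs. The study's text does not name the member of miR-2285, which was left out here. Within the TCs, the study reports miR-451 and miR-592 as downregulated and miR-34c and miR-449a as upregulated at the later time. For these TC times the signs found here were the reverse. Earlier minus later, the log2 difference was -2.02 for miR-451, -1.6 for miR-592, 1.33 for miR-34c and 2.15 for miR-449a. Without replicate 2 of the TCs at weeks 5 and 6 it was -0.9 for miR-34c and 0.62 for miR-449a. The cause of this disagreement in direction was not tested.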

How the data were processed

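Small RNA of EVs from 10 pools of follicular fluid was analysed, 1 library per pool. According to the study's methods, EVs were isolated by ultracentrifugation, libraries were made with the QIAseq miRNA kit, adaptors were removed with Cutadapt 1.11, reads were mapped with Bowtie2 2.2.2 to UMD3.1 and annotated with miRBase, and values were normalized with TMM. The authors deposited TMM-normalized CPM for each pool. In 5 of the 10 files the values sum to more than CPM can, and these deposited values were treated as a normalized signal. The study's methods do not state whether all groups were scaled together, so the reads behind the values were recovered first. Each of the 2793 values came out as a whole number of reads (tolerance 0.1 read). The procedure returned the right reads in 20 of 20 simulated libraries. The 10 pools were then scaled together with TMM (edgeR 4.0.16).

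miRNAs were kept by filterByExpr (minimum count 10, minimum total count 15) and fitted with limma 3.58.1 (mean-variance trend) on log2(CPM + 5). Such log2 differences understate the change of low miRNAs. The 4 group means gave the contrasts within and between cow classes. DESeq2 1.42.0 and the quasi-likelihood test ran on the recovered reads as alternatives. Single values were compared with exact two-sided permutation tests, and the fit was tested on simulated data. The thresholds are those of the study's methods. miRNAs were named if they had the 10 lowest p-values in a direction (no miRNA was called), the 5 lowest for the difference between classes, up to 4 of the lowest per list, or if the study names them. The members and lists were chosen with earlier results of these data known. Near-identical miRNAs share reads and their levels are uncertain. Whether molecular identifiers were collapsed is not given in the sources used here. Sequences were not used here.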

Additional observations from a re-analysis of the deposited data

Results flagged for a closer look

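In groups of 5 pools, a pool was taken as far from the others when its gap to the nearest exceeded 0.71 of the group's range, which chance gives in about 1 in 20 groups, and 8 of 130 groups had such a pool. In negative status, replicate 3 of the TCs at weeks 5 and 6 was lowest for miR-126-3p at 533 CPM, and replicate 2 of the same group was highest for miR-34c at 7776 CPM, for miR-182 at 616 CPM and for the summed ciliated list at 9373 CPM. Replicate 1 of the ANCs was highest for miR-27b at 24265 CPM and lowest for the summed liver list at 4573 CPM. In positive status, replicate 1 of the TCs at weeks 9 and 10 was highest for miR-154c at 86.8 CPM, and replicate 1 of the APCs was lowest for the summed liver list at 3698 CPM.

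The difference of negative minus positive status had opposite signs in the 2 cow classes and an unadjusted limma p-value under 0.05 for the difference between classes in 10 of the 54 named miRNAs, while none passed the adjusted p-value of 0.25. Over all 221 tested miRNAs, 33 (14.9%) had such a p-value and 139 (62.9%) had opposite signs. miR-671, miR-874, miR-592, miR-652 and miR-320a had been named for their low p-value in this same difference, so their place among the 10 followed from the choice. On the log2 scale the difference between classes was -2.9 for miR-671, -3.98 for miR-874, 2.22 for miR-592, -3.03 for miR-652 and -2.65 for miR-320a. It was -5.04 for miR-449a, -2.25 for miR-150, 1.05 for miR-31, -3.15 for miR-23b-3p and -2.37 for miR-27a-3p.

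Outside the 263 miRNAs of the comparison, 38 were listed for some of the pools. In 7 of them both APC pools had more reads than both ANC pools, at counts too low for a test. The lower of the 2 APC pools had 5 reads for miR-1291, 5 for miR-135a, 8 for miR-21-3p, 4 for miR-2284h-5p, 9 for miR-2285z, 9 for miR-331-5p and 8 for miR-362-3p, and the ANC pools had 0 to 2 reads for each. These 7 were chosen by this pattern. The APC libraries were also deeper, with 327359 and 421435 reads against 222091 and 145030 in the ANCs.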

How the results depend on the processing

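The pooled comparison gave 0 calls in the main analysis and under most alternatives. It gave 2 with DESeq2, 1 (miR-451) with arrayWeights, and 0 to 2 when single pools were left out. Between ANCs and APCs there was 1 call with DESeq2 and 0 to 1 without single pools. Between the TC times there was 1 call with DESeq2, 1 with arrayWeights and 0 to 9 without single pools, 9 of them without replicate 2 of the TCs at weeks 5 and 6. Where 1 pool of the ANCs or APCs was left out, the lone pool is assumed to vary like the other groups. The difference between classes gave 23 calls with at least 10 reads in every pool (163 miRNAs tested), 52 with total counts, 26 with DESeq2, 24 with arrayWeights and 0 to 47 without single pools, and the cause was not tested. Alternatives for the classes other than the quasi-likelihood test, total counts within classes, the replicate block and, for the difference, leaving out pools were chosen after seeing the data.

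The replicate numbers were tried as a block. Same-numbered pools deviated together with correlations of -0.011, -0.034 and 0.099 in the TCs and 0.264 and 0.264 in ANCs and APCs. In ANCs and APCs the values are equal by construction, because the deviations of a pair of pools from their mean mirror each other. Deviations from the group mean are also tied to each other in the TCs. Whether same-numbered pools share more than a number therefore cannot be told from these values. With the replicate block the difference between classes gave 48 calls, and the pooled and within-class comparisons gave 0.

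Of 1333 alternative values of 54 named miRNAs in the pooled comparison, 1277 kept their direction and 56 reversed, in 12 miRNAs. Without the TCs at weeks 9 and 10 (weeks 5 and 6 only), the log2 difference was -0.03 for miR-499, -0.94 for miR-671, -1.81 for miR-874, 0.24 for miR-592, -1.16 for miR-652, -0.95 for miR-320a, -0.47 for miR-449a and -1.38 for miR-23b-3p. With the quasi-likelihood test and DESeq2 it was -0.05 and -0.04 for miR-671, -0.42 and -0.43 for miR-874, -0.04 and -0.04 for miR-652, 2.57 and 2.52 for miR-34c, and -0.16 and -0.15 for miR-23b-3p. For miR-874 it was -0.07 with a pseudocount of 20 CPM and -0.01 for the deposited values, for miR-449a -0.22 with a pseudocount of 1 CPM, and for miR-27a-3p 0.02 with total counts and 0.04 with arrayWeights. Leaving out single pools gave -0.21 to 0.4 for miR-671, -0.43 to 0.57 for miR-874, -0.2 to 0.61 for miR-652, -0.01 to 0.65 for miR-320a, -1.55 to 0.51 for miR-34c, -1.02 to 1.07 for miR-449a, -0.61 to 0.09 for miR-200b, -0.01 to 0.32 for miR-202, -0.32 to 0.53 for miR-23b-3p and -0.32 to 0.31 for miR-27a-3p.

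Among the measures of the libraries, the difference in detected miRNAs, negative minus positive, changed sign with depth. It was -1.0 in the main analysis and 1.02 when every pool was thinned to the shallowest. Without single pools the log2 of the summed ciliated list differed by -1.31 to 0.649, of the epithelial list by -0.523 to 0.249, of the granulosa and gonad list by -0.351 to 0.161, of the liver list by -0.118 to 0.681, and the TMM factor by -0.03 to 0.096. Total counts moved the median of all miRNAs from -0.16 to 0.36 between ANCs and APCs and from 0.06 to -0.17 between the TC times. Sums over miRNAs with the same seed were not run, since mature sequences were not used here. Depth limited low miRNAs most in replicate 2 of the ANCs, where 3 reads were 20.3 CPM.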
